A study of Mus musculus with 15 samples.

Results

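The 9 genes Lyz2, Ccr2, Ly6c2, Plac8, Ms4a7, Mrc1, Cd163, F13a1 and Cd14 were selected by symbol, as genes used to recognise blood monocytes and the macrophages that lie along brain vessels, from the 36265 genes with values in an RNA sequencing study of mouse substantia nigra. All 9 were present in both deposited tables. The miR-181 injected libraries came from the nigra of 3 naive C57Bl/6J mice that received 1.65e10 vector genomes of AAV-hSYN1-miR-181, and the GFP injected libraries from 4 such mice that received 1e10 vector genomes of AAV-hSYN1-GFP. AAV is adeno-associated virus, hSYN1 is the human synapsin promoter, which drives transcription in neurons, and GFP is green fluorescent protein. The miR-181 uninjected libraries were the opposite nigra of the same 3 mice, and the GFP uninjected libraries the opposite nigra of 5 mice, of which GFP mouse 5 had no injected library. All tissue was taken 3 weeks after injection, and the labels give no genetic alteration in any group. Both uninjected groups therefore came from animals that carried a vector on the other side. Vector, dose, sequencer, library preparation and read length (75 bases in the miR-181 set, 50 bases in the GFP set) differed together between the sets and cannot be told apart.

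Classical monocytes are made in the bone marrow and circulate with high surface Ly6C and with CCR2, the receptor through which CCL2 calls them out of marrow and into inflamed tissue. Once in tissue they can become macrophages and switch on genes such as Ms4a7. Perivascular macrophages are separate, long-lived cells at the border between vessel and brain, recognised by the scavenger receptors encoded by Mrc1 and Cd163, whereas microglia, the macrophages of the brain tissue itself, carry much Csf1r and little of these border genes.

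Abundance is given as the deposited value, read as TPM (a share of all transcripts in the library, counted per length of transcript) divided by 1 size factor per library. Since TPM is rescaled within a library, the depth behind a value is unknown for single libraries. The authors' deposited mean log estimated counts, taken out of the log and summed over genes, came to 2.20e+07 in the miR-181 set and 9.65e+06 in the GFP set, so the GFP values of low genes rest on fewer reads. A value of 1 or more was found for 15022 to 15563 genes per library. The dopamine neuron genes that mark the nigra were present throughout, with Th between 171 and 604. Their summed abundance was 1206, 529 and 829.1 in miR-181 injected libraries of mice 1, 2 and 3, against 1192, 1183 and 826 in the uninjected libraries, so of the 3 mice mouse 2 was lower on its injected side. That injected library also had the highest pan-myeloid and lymphocyte sums and the highest Plac8, Ms4a7, Mrc1, Cd163 and Ccr2 values of the 3. The members Lyz2, Ly6c2, F13a1 and Cd14 were instead highest in injected mouse 3, and Lyz2 was lowest in injected mouse 2. The part of tissue content in these values was not tested. GFP mouse 1 stood apart because the pituitary hormone genes Prl and Gh made up 0.227% of its injected library and 4.70% of its uninjected library. Changes are differences of log2(value + 0.5), injected minus uninjected, with the limma standard error, and a gene was called at a Benjamini-Hochberg adjusted p under 0.05 over all genes with a mean of at least 1. The added 0.5 makes the change of low genes look smaller than it is.

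Lyz2, which encodes lysozyme M, a bacterial wall-cutting enzyme made by monocytes, macrophages, neutrophils and activated microglia, was the most abundant of the 9 genes in every group and rose in both sets. Its abundance was 114, 112 and 131 in miR-181 injected libraries of mice 1, 2 and 3, against 18.3, 20.5 and 27.0 in the uninjected libraries of the same mice. GFP mice gave Lyz2 values of 50.0, 79.4, 36.2 and 114 in injected libraries of mice 1 to 4, against 15.6, 11.4, 10.5, 10.1 and 10.6 in uninjected libraries of mice 1 to 5. The injected and uninjected values did not overlap in either set, and the injected values of the GFP set varied more than those of the miR-181 set. The Lyz2 log2 change was 2.43 ± 0.14 (SE, adjusted p = 0.00225) in the miR-181 set and 2.42 ± 0.28 (SE, adjusted p = 0.00244) in the GFP set, about 5.38-fold and 5.35-fold. Within mice the injected side held between 4.84 and 6.205 times the uninjected value in the miR-181 set and between 3.19 and 11.3 times in the GFP set. The Lyz2 call held without any single library in both sets, with adjusted p up to 0.0202 in the miR-181 set and 0.0131 in the GFP set, and it held with mouse as a block, at adjusted p = 0.00684 and 0.0334. RNA of a whole tissue piece cannot tell more cells of a type from more RNA per cell, and this applies to each value here.

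Lyz2 (GRCm38 chr10:117277331-117282321, minus strand) lies beside Lyz1 (chr10:117287797-117292868), the lysozyme gene of intestinal Paneth cells, whose coding sequence is 95.1% identical, so reads could be divided between them. The stretch of the coding sequences from base 37 to base 156 is shown because it holds 14 of the 22 differing bases, in capitals, out of 447.
Lyz2: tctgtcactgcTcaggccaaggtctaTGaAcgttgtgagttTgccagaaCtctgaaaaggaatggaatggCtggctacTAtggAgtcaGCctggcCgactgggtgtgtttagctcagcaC
Lyz1: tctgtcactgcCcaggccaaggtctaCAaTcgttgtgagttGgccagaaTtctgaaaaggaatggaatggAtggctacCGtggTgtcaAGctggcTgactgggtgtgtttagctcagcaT
Of the 31-base words of Lyz2 transcripts, 32.8% also occur in Lyz1 and in no other gene. Lyz1 itself stayed between 0.150 and 0.327 in miR-181 injected libraries and between 0.0461 and 0.125 in miR-181 uninjected libraries, and it did not pass 0.334 in any GFP library. Of the 10 neutrophil genes measured as another possible source of Lyz2, none reached a mean of 1 in either set. Their summed abundance was 0.942 to 1.37 in miR-181 injected against 1.04 to 1.67 in miR-181 uninjected libraries, and 0.985 to 2.75 in GFP injected against 0.550 to 1.91 in GFP uninjected libraries. Mmp8 and Elane were listed at 0 in all miR-181 injected libraries, and Camp, Retnlg, Ly6g and Elane in all GFP injected libraries.

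Ly6c2 encodes a form of Ly6C, the surface protein by which inflammatory monocytes are sorted, and it had the largest log2 change of the tested members in the miR-181 set. Its abundance was 6.92, 29.4 and 43.0 in miR-181 injected libraries of mice 1, 2 and 3, against 1.04, 0.935 and 1.22 in the uninjected libraries. GFP mice gave Ly6c2 values of 5.89, 10.3, 1.88 and 3.29 in injected libraries, against 0.820, 1.19, 0.687, 1.03 and 1.13 in uninjected libraries. The groups did not overlap in either set, and miR-181 mouse 1 and GFP mouse 3 were the low injected libraries. The Ly6c2 log2 change was 3.77 ± 0.60 (SE, adjusted p = 0.0194) in the miR-181 set and 1.78 ± 0.38 (SE, adjusted p = 0.0531) in the GFP set, where it missed the threshold. The miR-181 call was lost without any 1 of the 3 uninjected libraries or of injected mice 2 and 3, at adjusted p between 0.0573 and 0.0955, and without injected mouse 1 the change was 4.53 (adjusted p = 0.000103). The GFP change passed without injected mouse 3 (adjusted p = 0.0117) and with a pseudocount of 0.1 (adjusted p = 0.0423).

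Ly6c2 (chr15:75108158-75111970, minus strand) has a near copy, Ly6c1 (chr15:75044018-75048830), which brain endothelial cells transcribe at a high level, so reads could be divided between this pair too. The first 120 coding bases are shown because they hold 6 of the 9 differences, in capitals, among 396 bases of 97.7% identity.
Ly6c2: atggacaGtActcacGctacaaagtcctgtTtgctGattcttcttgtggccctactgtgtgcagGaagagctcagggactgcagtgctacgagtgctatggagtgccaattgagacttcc
Ly6c1: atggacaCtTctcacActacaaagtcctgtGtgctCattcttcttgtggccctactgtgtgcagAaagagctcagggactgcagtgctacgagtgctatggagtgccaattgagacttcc
Ly6c1 was between 110 and 160 in miR-181 injected against 103 to 116 in miR-181 uninjected libraries, a log2 change of 0.31 ± 0.14 (SE, adjusted p = 0.236), and its change in the GFP set was 0.07 ± 0.09 (SE, adjusted p = 0.857). Ly6c2 amounted to 6.297%, 18.4% and 28.6% of Ly6c1 in miR-181 injected libraries, against 1.02%, 0.802% and 1.06% in uninjected libraries. Among GFP mice the share was 4.10%, 7.70%, 1.51% and 2.03% in injected libraries and between 0.543% and 0.917% in uninjected libraries. The share was higher in each injected library than in any uninjected library of its set, and how reads were divided between the copies was not tested. Ly6i, another gene of the family, rose by 3.96 ± 0.28 on the log2 scale (SE, adjusted p = 0.00225) in the miR-181 set, and Ly6a by 1.55 ± 0.33 (SE, adjusted p = 0.0445).

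Plac8, a small cysteine-rich protein abundant in classical monocytes, plasmacytoid dendritic cells and some lymphocytes, was, like Ly6c2, lowest in mouse 1 among the miR-181 injected libraries. Its abundance was 2.003, 14.5 and 12.5 in miR-181 injected libraries, against 0.292, 0.161 and 0.507 in uninjected libraries. GFP mice gave Plac8 values of 3.89, 2.24, 0.926 and 1.43 in injected libraries, and the gene was listed at 0 in all 5 uninjected libraries, so no fold is given there. Each injected library stood above each uninjected library of its set. In the miR-181 set the log2 change was 3.28 ± 0.66 (SE, adjusted p = 0.0382), and the authors' deposited table gives a mean log count for the gene that corresponds to a geometric mean of 16.7 estimated counts. That call was lost with a pseudocount of 1 (adjusted p = 0.0504), without the intensity trend (adjusted p = 0.0739) and without any single library other than injected mouse 1, up to adjusted p = 0.146; without injected mouse 1 the change was 4.11 (adjusted p = 0.000280). Its mean in the GFP set was under 1 and it was not tested, but with a minimum mean of 0.2 it was called (adjusted p = 0.00550), and with mouse as a block, which leaves out mouse 5 and so lets it pass the minimum mean of 1, it was not (adjusted p = 0.0753). The 5 GFP uninjected libraries, all at 0, show no spread, so the spread of Plac8 there comes from the injected libraries.

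Some T cells also transcribe Ly6c2 and Plac8, and summed lymphocyte markers were also higher in the injected libraries of both sets. The 12 lymphocyte markers summed to 49.9, 235 and 202 in miR-181 injected libraries of mice 1, 2 and 3, against 4.59, 6.501 and 12.1 in uninjected libraries, and to 10.7, 46.8, 17.1 and 27.6 in GFP injected against 3.14 to 6.40 in GFP uninjected libraries. No marker of the list was at 0 in all libraries of any group. In the miR-181 set 6 of the 9 tested markers were higher, among them Jchain, the joining chain of secreted antibodies (log2 change 4.47 ± 0.65, SE, adjusted p = 0.0147), and the T cell receptor complex genes Cd3g (3.49 ± 0.56, SE, adjusted p = 0.0208) and Cd3e (2.67 ± 0.51, SE, adjusted p = 0.0324). Nkg7, a gene of cytotoxic lymphocyte granules, rose by 3.52 ± 0.68 (SE, adjusted p = 0.0338). Cd3g, at 0.131 to 0.372 in miR-181 uninjected libraries, reached the minimum mean only through its injected libraries. A call of Cd3g could thus only be higher. Of all genes tested in the miR-181 set, 4.39% were called higher. Of 3 tested in the GFP set 1 was higher, Jchain at 3.12 ± 0.55 (SE, adjusted p = 0.0214), against 1.34% of all genes tested there. As with Ly6c2 and Plac8, mouse 1 was the lowest of the miR-181 injected libraries. Among GFP injected libraries, mouse 1 had the lowest lymphocyte sum but the highest Plac8 value. GFP mouse 2 had the highest lymphocyte sum and the highest Ly6c2 value. The part of lymphocytes in the Ly6c2 and Plac8 values was not tested.

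**Figure D1:**
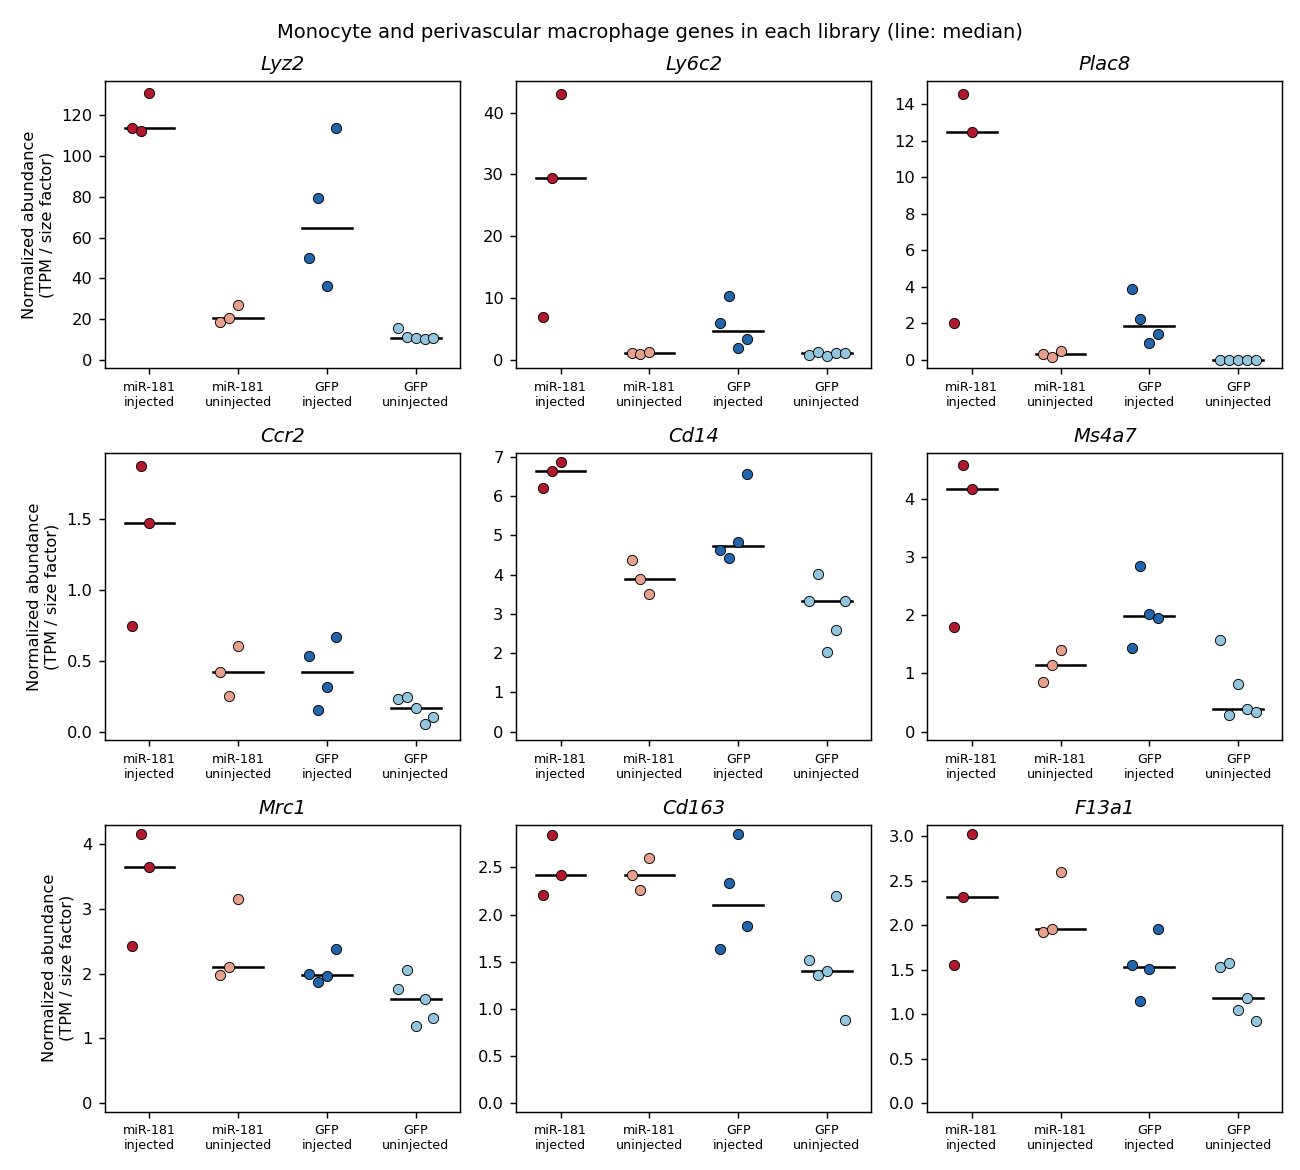
Abundance (TPM divided by a size factor, linear axis) of the 9 genes in each library. Points are libraries, in order of mouse from left to right within a group, and lines are medians. Lyz2 lies between 112 and 131 in miR-181 injected libraries and at 27.0 or below in miR-181 uninjected libraries, while the values of Cd163 and F13a1 overlap between the sides in both sets.

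Ccr2, the receptor for CCL2, was the least abundant member in both groups of injected libraries. Its abundance was 0.745, 1.88 and 1.47 in miR-181 injected libraries, against 0.420, 0.254 and 0.602 in uninjected libraries, with no overlap. GFP mice gave Ccr2 values of 0.530, 0.154, 0.313 and 0.667 in injected libraries, against 0.228, 0.247, 0.166, 0.0561 and 0.102 in uninjected libraries, and GFP injected mouse 2 lay among the uninjected values. Its mean was under 1 in both sets, so it was not tested, and with a minimum mean of 0.2 it was not called in the miR-181 set (log2 change 0.98, adjusted p = 0.121) or in the GFP set (0.45, adjusted p = 0.597). The authors' deposited table gives Ccr2 a q-value of 0.0233 in the first and 0.0882 in the second of its 2 tests of the miR-181 set.

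Genes of 3 monocyte chemokines, Ccl2 and Ccl12, whose products bind CCR2, and the related Ccl8, rose in the miR-181 set. Ccl2 had abundance between 3.66 and 13.3 in miR-181 injected libraries and between 0.213 and 0.608 in miR-181 uninjected libraries, with a log2 change of 3.32 ± 0.45 (SE, adjusted p = 0.0121). Ccl2 reached the minimum mean there only through its injected libraries, so a call of it could only be higher. Ccl12 changed by 3.46 ± 0.44 (SE, adjusted p = 0.0105) and Ccl8 by 3.11 ± 0.37 (SE, adjusted p = 0.00817) in the miR-181 set. Ccl8 in the GFP set changed by 3.08 ± 0.42 (SE, adjusted p = 0.00617) and Ccl12 by 2.18 ± 0.40 (SE, adjusted p = 0.0249), while Ccl2 was between 0.747 and 2.86 in injected libraries and at or below 0.319 in uninjected libraries, too low to be tested. Of the list of CCR2 ligands and monocyte growth factors, which also holds Csf1 and its receptor gene Csf1r, 7 of 11 tested genes were higher in the miR-181 set and 3 of 9 in the GFP set, and none was lower. Among all genes tested, 4.39% were called higher in the miR-181 set and 1.34% in the GFP set. Cx3cr1, the fractalkine receptor of microglia and patrolling monocytes, was among the list genes higher in the miR-181 set (0.82 ± 0.11, SE, adjusted p = 0.0109).

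Cd14, the co-receptor that hands bacterial lipopolysaccharide to TLR4 on monocytes, macrophages and microglia, rose modestly in the miR-181 set. Its abundance was 6.22, 6.64 and 6.86 in miR-181 injected libraries, against 4.38, 3.89 and 3.52 in uninjected libraries. GFP mice gave Cd14 values of 4.64, 4.44, 4.83 and 6.56 in injected libraries, against 3.32, 4.02, 2.03, 2.60 and 3.34 in uninjected libraries. The sides did not overlap in either set. The Cd14 log2 change was 0.68 ± 0.12 (SE, adjusted p = 0.0247) in the miR-181 set and 0.67 ± 0.18 (SE, adjusted p = 0.172) in the GFP set. The miR-181 call was lost with mouse as a block (adjusted p = 0.0546), under quantile normalization (adjusted p = 0.0548) and without any single library other than injected mouse 1, up to adjusted p = 0.110; without injected mouse 1 it was 0.0226.

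Among the 10 other tested genes of the lipopolysaccharide receptor pathway in the miR-181 set, 2 were higher and none lower. They were Tlr2, a receptor for bacterial lipopeptides (log2 change 1.87 ± 0.30, SE, adjusted p = 0.0210), and Irak4, a kinase downstream of the receptors (0.69 ± 0.14, SE, adjusted p = 0.0397). Tlr4 itself was 1.498 to 2.45 in miR-181 injected and 0.596 to 1.53 in miR-181 uninjected libraries, with a log2 change of 0.74 ± 0.29 (SE, adjusted p = 0.189). Tlr2 was in the GFP set the 1 gene called of 9 tested, at 1.11 ± 0.17 (SE, adjusted p = 0.0104). Among all genes tested, 4.39% were called higher in the miR-181 set and 1.34% in the GFP set.

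Ms4a7, a four-pass membrane protein of unsettled function that marks border macrophages and monocyte-derived macrophages more than microglia, was higher on the injected side in 3 of 3 miR-181 mice and 3 of 4 GFP mice but did not pass the test in either set. Its abundance was 1.79, 4.58 and 4.18 in miR-181 injected libraries, against 0.858, 1.14 and 1.41 in uninjected libraries, with no overlap. GFP mice gave Ms4a7 values of 1.44, 2.85, 2.02 and 1.96 in injected libraries, against 1.58, 0.291, 0.812, 0.390 and 0.342 in uninjected libraries. GFP mouse 1 was the exception, with the highest uninjected value, and it is also the mouse with pituitary transcripts. The Ms4a7 log2 change was 1.23 ± 0.33 (SE, adjusted p = 0.0849) in the miR-181 set and 1.19 ± 0.32 (SE, adjusted p = 0.156) in the GFP set. It passed without miR-181 injected mouse 1 (adjusted p = 0.00735) and without GFP uninjected mouse 1 (adjusted p = 0.0339). Other genes of the MS4A family were called: 5 of 5 tested were higher in the miR-181 set, with a median log2 change of 2.52 (that of Ms4a6b), and 2 of 5 in the GFP set, Ms4a4b at 1.95 ± 0.26 (SE, adjusted p = 0.00482) and Ms4a6d at 1.41 ± 0.24 (SE, adjusted p = 0.0185). Ms4a4b, which T cells transcribe, was between 5.27 and 21.1 in miR-181 injected libraries and at or below 0.517 in miR-181 uninjected libraries. Ms4a4b thus reached the minimum mean there only through its injected libraries, and a call of it could only be higher. The family list holds 10 genes, of which 5 were tested in each set. Of all genes tested, 4.39% were called higher in the miR-181 set and 1.34% in the GFP set.

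Mrc1, Cd163 and F13a1, all used to recognise perivascular macrophages, showed no change that passed the test in either set. Mrc1, the mannose receptor CD206, was 2.43, 4.15 and 3.64 in miR-181 injected libraries, against 1.98, 2.10 and 3.15 in uninjected libraries. GFP mice gave Mrc1 values of 1.99, 1.87, 1.96 and 2.37 in injected libraries, against 1.76, 2.06, 1.20, 1.61 and 1.31 in uninjected libraries. The sides overlapped in both sets. The Mrc1 log2 change was 0.42 ± 0.24 (SE, 95% interval -0.15 to 0.99, adjusted p = 0.346) in the miR-181 set and 0.30 ± 0.17 (SE, 95% interval -0.09 to 0.69, adjusted p = 0.656) in the GFP set.

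Cd163, the scavenger receptor for haemoglobin bound to haptoglobin, had nearly the same values on both sides of the miR-181 mice. They were 2.20, 2.84 and 2.42 in miR-181 injected libraries, against 2.42, 2.26 and 2.60 in uninjected libraries. GFP mice gave Cd163 values of 1.63, 2.33, 2.85 and 1.88 in injected libraries, against 1.52, 1.36, 1.41, 2.20 and 0.883 in uninjected libraries. The Cd163 log2 change was 0.03 ± 0.16 (SE, 95% interval -0.35 to 0.40, adjusted p = 0.943) in the miR-181 set, where its sign turned under quantile normalization (-0.15), and 0.45 ± 0.22 (SE, 95% interval -0.05 to 0.95, adjusted p = 0.582) in the GFP set. Blood carries the haemoglobin that CD163 takes up. The erythrocyte list had 0 of 5 genes called by limma in either set, with 0 of 5 in each at an unadjusted p under 0.05, and globin transcripts summed to 675 to 1175 in miR-181 injected against 710 to 1166 in miR-181 uninjected libraries. Among the 5 tested genes of haemoglobin scavenging, Hmox1, the heme-degrading enzyme, was the 1 called in the miR-181 set, at 0.90 ± 0.14 (SE, adjusted p = 0.0168), and 0 were called in the GFP set, with 2 at an unadjusted p under 0.05.

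F13a1 encodes the A subunit of coagulation factor XIII, the transglutaminase that cross-links fibrin and that monocytes and tissue macrophages carry inside the cell. Its abundance was 1.56, 2.32 and 3.03 in miR-181 injected libraries, against 1.93, 1.97 and 2.60 in uninjected libraries, so mouse 1 was lower and mice 2 and 3 higher on the injected side. GFP mice gave F13a1 values of 1.56, 1.15, 1.51 and 1.96 in injected libraries, against 1.53, 1.58, 1.05, 1.19 and 0.928 in uninjected libraries. The F13a1 log2 change was 0.05 ± 0.24 (SE, 95% interval -0.53 to 0.62, adjusted p = 0.936) in the miR-181 set, where quantile normalization turned its sign (-0.16), and 0.22 ± 0.20 (SE, 95% interval -0.22 to 0.67, adjusted p = 0.779) in the GFP set. F13b, the carrier subunit made by the liver, was listed at 0 in all but 1 library. Of 5 tested genes of the factor XIII and fibrin list, Plau, the urokinase that starts fibrin breakdown, was the 1 called in the miR-181 set (0.96 ± 0.19, SE, adjusted p = 0.0390), with 0 in the GFP set and 2 there at an unadjusted p under 0.05.

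Counted together, 4 of the 8 tested members were called in the miR-181 set, all higher (Lyz2, Ly6c2, Plac8 and Cd14), where 5.88% of the 15453 genes tested were called, 4.39% higher and 1.49% lower. In the GFP set 1 of 7, Lyz2, was called higher, where 1.35% of 15274 genes were called, 1.34% higher and 0.0131% lower. Plac8 in the miR-181 set reached the minimum mean only through its injected libraries (mean 9.67, against 0.320 in uninjected libraries). A call of Plac8 could thus only be higher. Ly6c2 and Ms4a7 in the GFP set, with uninjected means of 0.971 and 0.682, entered the test in the same way. The injected values of 6 of the 9 members lay above all uninjected values in the miR-181 set, against 16.0% of all genes tested, with 14.5% lying below. In the GFP set this held for 4 of 9 (Lyz2, Ly6c2, Plac8 and Cd14), against 3.29% of genes tested above and 1.00% below. These shares cover only genes with a mean of at least 1. Ccr2, among the 6 members of the miR-181 set, and Plac8, among the 4 of the GFP set, fell short of that mean. The members' median log2 change was 0.95 in the miR-181 set and 0.67 in the GFP set, with a median of 0.00 over all genes tested in each. The members were chosen with earlier results of these data known, so setting these counts beside all genes is a description, not a test. When any single miR-181 library other than injected mouse 1 was left out, Lyz2 was the 1 member called in that set. Injected mouse 2, the library with the low dopamine neuron sum, is 1 of those libraries. Without it 511 genes were called in all, against 908 with all libraries, and the count ran from 117 to 1924 over the runs with 1 library left out. Ms4a7, Mrc1, Cd163 and F13a1 were tested and not called in both sets, and Ccr2 was tested in neither; whether called members changed more than the others was not tested.

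**Figure D2:**
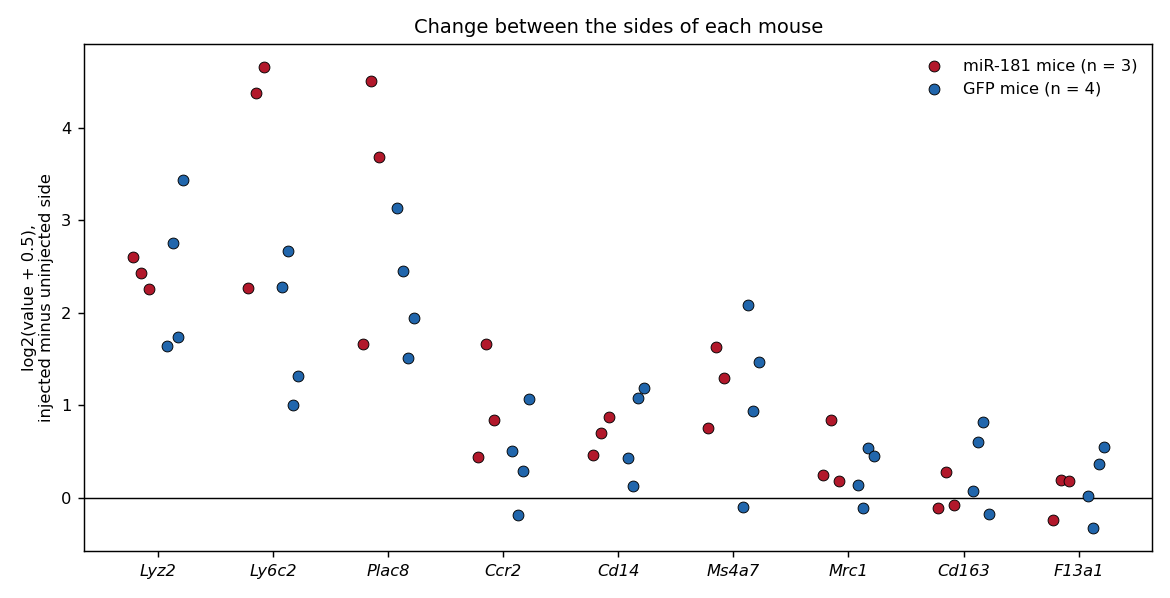
Change of each member between the sides of a mouse, as log2(value + 0.5) of the injected side minus that of the uninjected side. Red points are the 3 miR-181 mice and blue points the 4 GFP mice with both sides, in order of mouse; Lyz2, Ly6c2, Plac8 and Cd14 lie above 0 in all 7 mice.

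The change in miR-181 mice minus the change in GFP mice was tested per mouse, 3 mice against 4, and none of the 8 tested members was called, where 0.0337% of 14832 genes were called, 0.00674% higher and 0.0270% lower. Ly6c2 was the 1 member at an unadjusted limma p under 0.05, with a difference of 1.95 ± 0.63 (SE, 95% interval 0.52 to 3.39, adjusted p = 0.210). The per-mouse changes of Ly6c2 were 2.27, 4.38 and 4.66 in miR-181 mice 1, 2 and 3, against 2.28, 2.67, 1.01 and 1.31 in GFP mice 1 to 4, so miR-181 mouse 1 fell inside the GFP range. Without that mouse the difference was 2.71 (adjusted p = 0.0396), and over all alternatives the adjusted p ran from 0.0396 to 0.619. Lyz2 differed by 0.03 ± 0.40 (SE, 95% interval -0.88 to 0.95, adjusted p = 0.980). Cd14 differed by -0.03 ± 0.28 (SE, 95% interval -0.67 to 0.62) and Plac8 by 1.02 ± 0.68 (SE, 95% interval -0.54 to 2.58, adjusted p = 0.529). Beside the members, the pan-myeloid genes had a median difference of 0.58, with 9 of 10 at an unadjusted p under 0.05 and 0 called by limma.

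The members were also set against Csf1r, the growth factor receptor gene of all macrophages and microglia. Csf1r was 118 to 162 in miR-181 injected and 65.2 to 70.5 in miR-181 uninjected libraries, a log2 change of 0.96 ± 0.12 (SE, adjusted p = 0.00897), and its change in the GFP set was 0.63 ± 0.08 (SE, adjusted p = 0.00457). Lyz2 amounted to between 69.5% and 108% of Csf1r in miR-181 injected libraries and between 26.0% and 41.5% in miR-181 uninjected libraries. The share among GFP mice was between 43.1% and 133% in injected and between 18.6% and 23.4% in uninjected libraries, again with no overlap. Set against Aif1 instead, the miR-181 ratios of Lyz2 overlapped, at 156% to 292% in injected and 116% to 250% in uninjected libraries, and mouse 2 was lower on its injected side. They also overlapped against the geometric mean of the pan-myeloid genes (122% to 219% in injected, 84.5% to 123% in uninjected libraries), whereas the GFP ratios of Lyz2 did not overlap with any of the 3 denominators. Ly6c2 was 5.85% to 35.6% of Csf1r in miR-181 injected and 1.39% to 1.88% in miR-181 uninjected libraries. Its miR-181 ratios did not overlap with the other denominators either. The GFP ratios of Ly6c2 did not overlap against Csf1r (2.24% to 11.8% in injected, 1.23% to 2.09% in uninjected libraries). Against Aif1 they overlapped (9.31% to 36.8% in injected, 6.46% to 10.4% in uninjected libraries), as they did against the pan-myeloid geometric mean.

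For Cd163 and F13a1, whose own log2 changes in the miR-181 set were 0.03 and 0.05, a lower ratio follows from the higher Csf1r. Cd163 was 1.76% to 2.004% of Csf1r in miR-181 injected against 3.36% to 3.99% in miR-181 uninjected libraries, and F13a1 was 1.31% to 2.51% against 2.73% to 3.997%, both without overlap. Mrc1, at 2.05% to 3.01% in miR-181 injected against 2.80% to 4.83% in miR-181 uninjected libraries, and Cd14, at 4.11% to 5.68% against 5.40% to 6.21%, overlapped. The ratios among GFP mice of Cd163 (1.74% to 3.40% in injected, 1.55% to 4.47% in uninjected libraries) and F13a1 (1.33% to 2.29% in injected, 1.63% to 2.68% in uninjected libraries) overlapped. Against Aif1, whose own log2 change was 1.995 in the miR-181 set, Mrc1 (5.78% to 7.03% in miR-181 injected, 12.5% to 29.1% in miR-181 uninjected libraries) and Cd14 (9.25% to 16.0% in miR-181 injected, 27.8% to 32.5% in miR-181 uninjected libraries) did not overlap either, so which genes separate on such a ratio depends on the denominator. The ratios are a description, with no test.

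**Figure D3:**
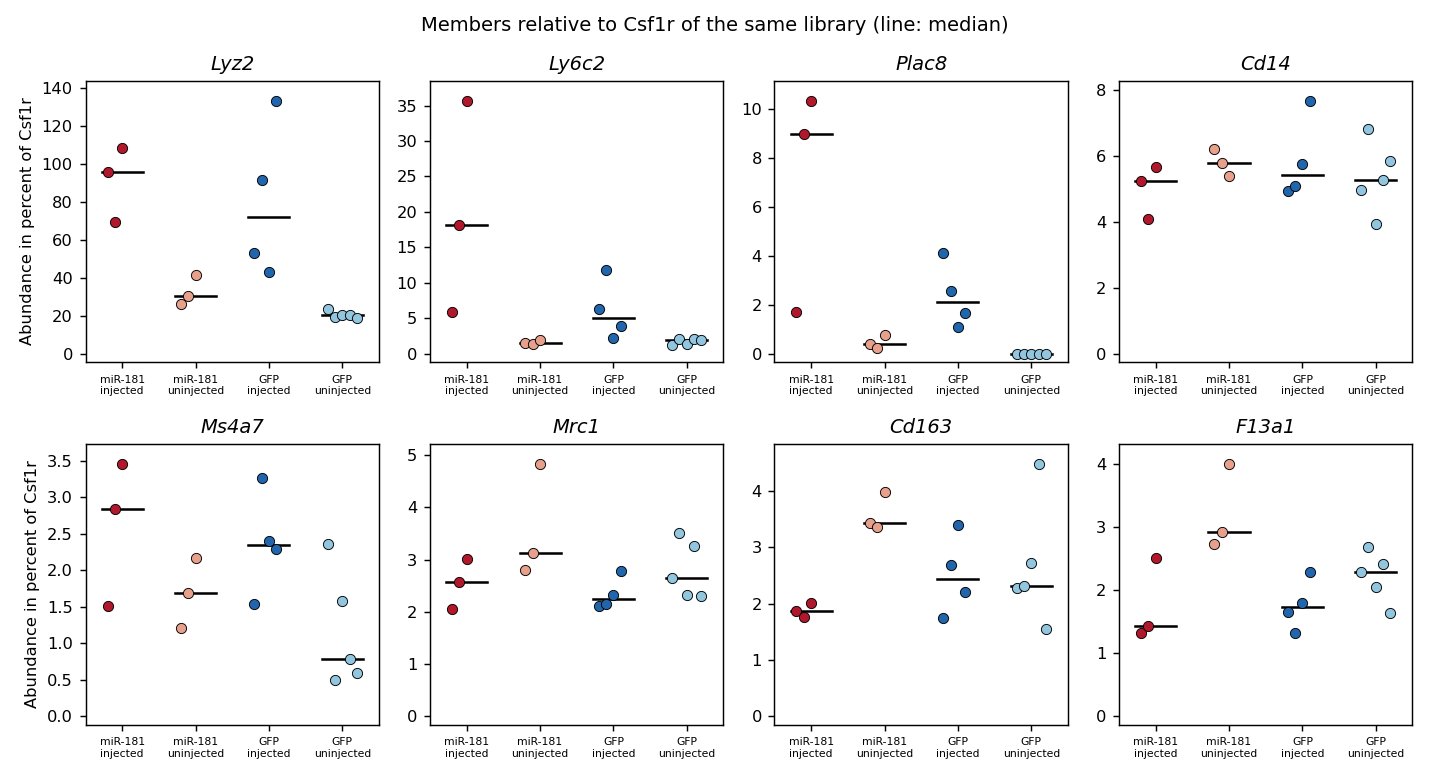
Abundance of 8 members in percent of the abundance of Csf1r in the same library (linear axis); points are libraries, lines medians. In the miR-181 set Lyz2 is above and Cd163 and F13a1 are below their uninjected ratios in every injected library, with Csf1r itself higher by 0.96 on the log2 scale.

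Within the injected libraries of the miR-181 set the members ranked by mean abundance as Lyz2, Ly6c2, Plac8, Cd14, Ms4a7, Mrc1, Cd163, F13a1 and Ccr2, and in the uninjected libraries as Lyz2, Cd14, Cd163, Mrc1, F13a1, Ms4a7, Ly6c2, Ccr2 and Plac8. Lyz2 stood clear of the next gene in all 4 groups. Neighbours whose library values overlapped were, in miR-181 injected libraries, Ly6c2 with Plac8, Plac8 with Cd14, and the run from Ms4a7 to Ccr2, and, in miR-181 uninjected libraries, the run from Cd163 to F13a1, Ms4a7 with Ly6c2, and Ccr2 with Plac8. In GFP injected libraries the order began Lyz2, Ly6c2 and Cd14, with Ly6c2 and Cd14 overlapping, and in GFP uninjected libraries Lyz2, Cd14 and Mrc1, with Plac8 last at 0. Ly6c2 was the gene next below Lyz2 in the injected libraries of both sets, and Cd14 in the uninjected libraries of both.

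Other genes of the same cells were counted in the same way. Of the other monocyte genes, 6 of 14 tested were higher and none lower in the miR-181 set, with a median log2 change of 0.90. They were Cybb, the catalytic subunit of the phagocyte oxidase (2.57 ± 0.27, SE, adjusted p = 0.00552), Itgal, the LFA-1 integrin chain also found on lymphocytes (3.02 ± 0.39, SE, adjusted p = 0.0105), S100a6 (1.02), Ms4a4c (2.54), Ms4a6c (2.04) and Cd44 (0.97). In the GFP set 2 of 13 were higher, Cybb at 1.80 ± 0.32 (SE, adjusted p = 0.0248) and S100a6 at 0.85 ± 0.17 (SE, adjusted p = 0.0395), and the median was 0.36. Over all genes tested, 4.39% were called higher and 1.49% lower in the miR-181 set, and 1.34% and 0.0131% in the GFP set. The same shares stand beside the counts of the other gene lists. Ms4a4c and Ms4a6c are also on the MS4A family list, so both lists count them.

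Of the other perivascular and border macrophage genes, 2 of 16 tested were higher in the miR-181 set, with a median of 0.10, and 0 of 12 in the GFP set (3 at an unadjusted p under 0.05), with a median of 0.15. The 2 were Clec10a, a lectin shared with dendritic cells (0.89 ± 0.15, SE, adjusted p = 0.0232), and Cd36, a fatty acid and lipoprotein receptor (1.42 ± 0.26, SE, adjusted p = 0.0293). Among all genes tested, 4.39% were called higher in the miR-181 set and 1.34% in the GFP set. Cbr2, a carbonyl reductase typical of resident border macrophages, was 2.10 to 2.80 in miR-181 injected against 3.09 to 4.65 in miR-181 uninjected libraries, a log2 change of -0.63 ± 0.19 (SE, adjusted p = 0.108).

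**Figure D4:**
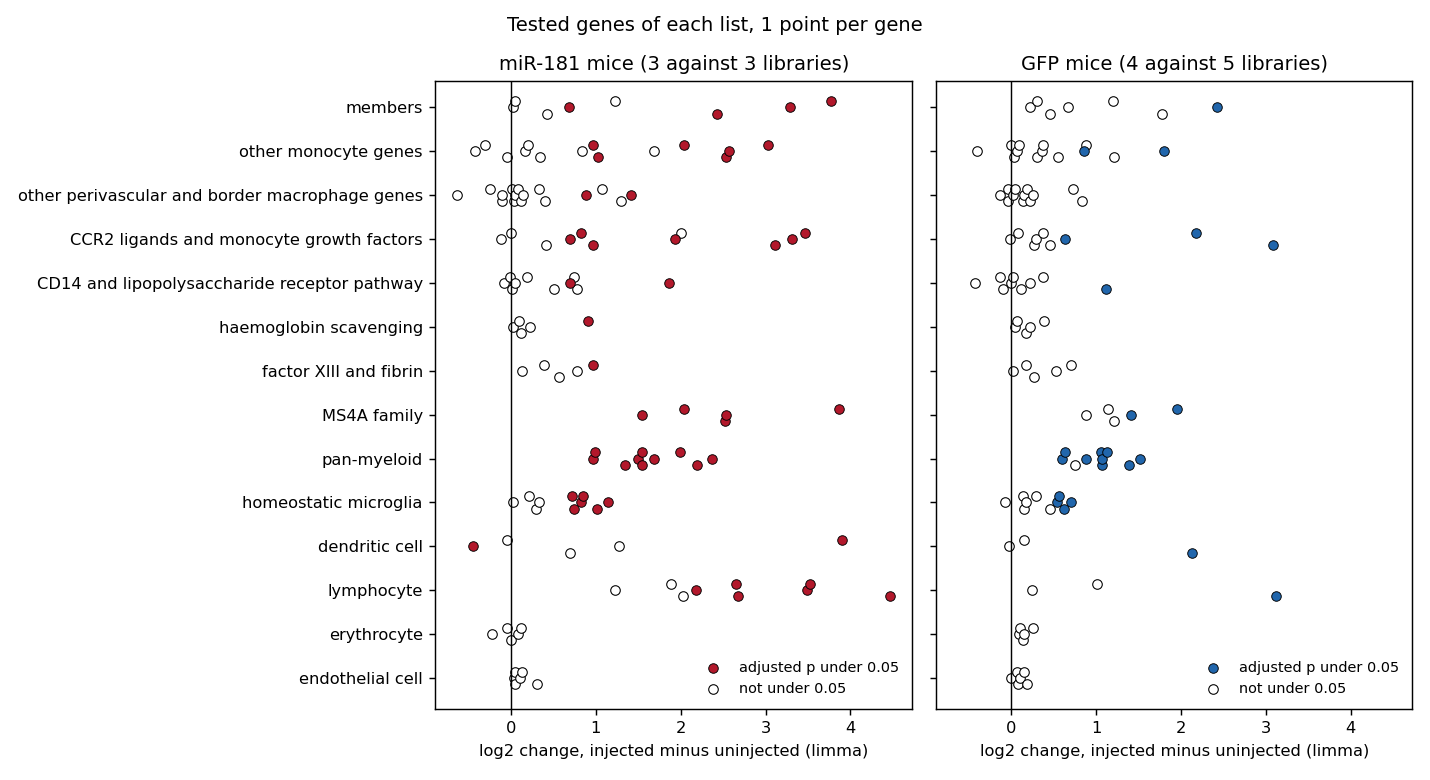
Log2 change (limma, injected minus uninjected) of each tested gene of the members and of 13 other gene lists, in the miR-181 set (left) and the GFP set (right). Each point is 1 gene; filled points passed an adjusted p of 0.05. The pan-myeloid list is called in 10 of 10 and 9 of 10 genes, the other perivascular and border macrophage list in 2 of 16 and 0 of 12.

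Genes that all myeloid cells share were also higher on the injected side. The members Mrc1, Cd163 and F13a1 did not pass the test in either set, and whether they changed less than the pan-myeloid genes was not tested. The 10 pan-myeloid genes were all higher in the miR-181 set (median log2 change 1.55) and 9 of 10 in the GFP set (median 1.06), and their sum was 941 to 1626 in miR-181 injected against 350 to 374 in miR-181 uninjected libraries, and 587 to 755 in GFP injected against 262 to 361 in GFP uninjected libraries. The smallest p belonged in both sets to Ctss, the lysosomal protease cathepsin S, with a log2 change of 2.19 in the miR-181 set and 1.51 in the GFP set. Cd68, a lysosomal membrane protein, changed by 1.55 in the miR-181 set, the adaptor Tyrobp by 1.55 in the miR-181 set and 1.05 in the GFP set, and Ptprc, the pan-leukocyte CD45, by 1.39 in the GFP set. Of the same list Aif1, the microglia and macrophage marker IBA1, was 38.9 to 71.7 in miR-181 injected against 10.8 to 15.8 in miR-181 uninjected libraries. Homeostatic microglia genes were higher for 6 of 10 in the miR-181 set (median 0.73) and 4 of 10 in the GFP set (median 0.37), with sums of 464 to 616 in miR-181 injected against 296 to 308 in miR-181 uninjected and of 313 to 383 in GFP injected against 218 to 273 in GFP uninjected libraries. Among those called in both sets were Tmem119 (log2 change 1.14 in the miR-181 set, 0.70 in the GFP set), Olfml3 (0.85 and 0.54) and Siglech (0.71 and 0.62), and the miR-181 set also had Cx3cr1 and P2ry13 (0.74). Of the dendritic cell list, Itgax, which activated microglia and macrophages also transcribe, was called higher in both sets (3.90 and 2.12) and Flt3 lower in the miR-181 set (-0.45). The endothelial, fibroblast, choroid plexus, pituitary and dopamine neuron lists had 0 genes called by limma in either set, and 0 at an unadjusted p under 0.05. The part of microglia in the Lyz2 and Cd14 values was not tested.

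By the per-mouse log2 changes over the 7 mice with both sides, the genes most like each of 7 members were ranked among 14824 genes by mean absolute difference. Plac8 and Ccr2 were left out because their mean was under 1 in at least 1 set. For Lyz2 they were Rac2 (0.358), Slamf8 (0.451) and Serpina3n (0.508). For Ly6c2 they were Ifi211 (0.429), Oas1a (0.453) and Ifit3 (0.461). For Ms4a7 they were Trem2 (0.351), Apobec1 (0.357) and Ptpn18 (0.364), and for Cd14 Nupr1 (0.146), Il6ra (0.170) and Plin2 (0.186). For Mrc1 they were Slc8b1, Akip1 and Stra6, for Cd163 Mylk, Notum and Rgcc, and for F13a1 Tnks1bp1, Dclre1c and Saal1. All 7 points of each come from the same libraries, and small changes lie close to one another on this measure whatever the gene.

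The vector carried miR-181, and the mature forms a, b, c and d of this microRNA share the seed, bases 2 to 8, shown in capitals for miR-181a-5p from the RefSeq table of GRCm38.p6. The labels do not say which form was expressed.
mmu-miR-181a-5p: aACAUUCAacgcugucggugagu
Matches to the seed (TGAATGT or GAATGTA) were sought in the 3′ UTRs of the members, the longest annotated one for each gene. The 2 members that hold one, Mrc1 and Cd163, are printed with the match in capitals, at base 457 of the Mrc1 UTR and base 148 of the Cd163 UTR, and the other 7 hold none.
Mrc1: gattgaataaGAATGTAttcaggtcttt
Cd163: accatatttgTGAATGTgaccacttaat
A match is found in 21.8% of 21093 genes with a 3′ UTR. The change in miR-181 mice minus that in GFP mice was 0.17 ± 0.27 (SE, adjusted p = 0.819) for Mrc1 and -0.30 ± 0.30 (SE, adjusted p = 0.687) for Cd163. Whether the match bears on either value was not tested.

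Promoters of 8 of the 9 members were in the RefSeq table, some with more than 1 start, each from 250 bases before to 50 bases after the start. The letters GAGGAA on either strand, the core of the box bound by the myeloid factor PU.1, occur in at least 1 promoter of Ly6c2, Plac8, Ms4a7, Mrc1 and F13a1, 5 of 8 members. Counted by promoter, they occur in 7 of the 12 member promoters, of which the pair of Ly6c2 overlap, and in 28.3% of all 32851 promoters. The promoters of Ly6c2, at chr15:75111922-75112221 on the minus strand, and of Mrc1, at chr2:14229164-14229463 on the plus strand, are shown as 1 monocyte and 1 resident macrophage gene with several matches, in capitals.
Ly6c2: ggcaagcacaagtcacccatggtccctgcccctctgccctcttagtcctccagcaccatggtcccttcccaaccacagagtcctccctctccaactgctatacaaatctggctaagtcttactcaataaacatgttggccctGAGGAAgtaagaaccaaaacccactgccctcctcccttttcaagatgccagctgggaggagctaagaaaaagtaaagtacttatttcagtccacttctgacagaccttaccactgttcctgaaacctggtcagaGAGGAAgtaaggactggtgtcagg
Mrc1: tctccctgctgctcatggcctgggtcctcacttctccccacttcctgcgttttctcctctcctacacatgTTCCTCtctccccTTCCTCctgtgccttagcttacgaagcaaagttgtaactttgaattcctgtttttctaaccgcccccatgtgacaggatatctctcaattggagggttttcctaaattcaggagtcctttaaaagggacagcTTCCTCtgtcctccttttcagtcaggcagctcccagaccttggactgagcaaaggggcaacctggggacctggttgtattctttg
Ly6c2, which rose in the miR-181 set, holds 2 matches, and Mrc1, which did not pass the test there, holds 3. The interferon-stimulated response element and the gamma-activated site (TTCNNNGAA), searched on both strands, are in none of the 12 member promoters and in 3.44% and 8.30% of all promoters. The C/EBP letters TTGCNNAA are in 1 member promoter, of Plac8, and in 10.8% of all.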

How the data were processed

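The 15 libraries hold polyA RNA of the substantia nigra of 8 mice, prepared with strand information and sequenced from both ends, per the labels' protocols. Per the submitters' processing notes, the tools were kallisto 0.43.1 and sleuth 0.30.0 on the build GRCm38. The deposited abundance of each gene is a signal taken to be TPM over a size factor of its library, because library sums vary where those of TPM would not. The authors' q-values (adjusted p-values of 2 tests) and mean log counts were used only where named; the deposited log values were read as natural logs. The tables were normalized separately, so no level was compared across them. Of 56305 rows in each table, 36660 held values and 395 repeats of the same gene were left out.

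The members and gene lists were chosen with earlier results of these data known. Genes with a mean of at least 1 entered a two-sided limma fit (version 3.58.1, R 4.3.3) of log2(value + 0.5) that used an intensity trend, and p-values were adjusted by Benjamini-Hochberg over all genes tested, at 0.05. Each fit was tested on simulated data. The planned test assumed TPM and was kept. The third comparison set per-mouse changes of 3 miR-181 mice against those of 4 GFP mice. The main fits of the side comparisons had no mouse term, so they treat both sides of a mouse as separate libraries. Replicates within a group are animals, so the spread is between mice.

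Both sides of a mouse come from 1 animal per the labels, so mouse numbers pair the libraries; same-mouse deviations correlated at 0.140 to 0.257 in the miR-181 set and 0.0177 to 0.192 in the GFP set. Alternatives were other pseudocounts (0.1 and 1) and filters (a mean of 0.2, none), quantile normalization, median centring, no trend, mouse as a block, and each library left out. All 9 members were named, and from each list the called genes, at most the 4 with the smallest p, and Csf1r, Aif1, Ccl2, Tlr4, Lyz1 and Ly6c1; further genes (Cbr2, F13b, Th, Flt3, Cd44, Ms4a6c, Cd3e and genes listed at 0) were named after their values were seen. A gene that this rule would name is not reported here. Genes most alike were the 3 with the smallest mean absolute difference of per-mouse change. Gene positions, transcripts and UTRs came from GENCODE M21, and miRNAs and promoters from RefSeq (GRCm38.p6), with Python 3.11.15, numpy 2.4.6, pandas 2.3.3 and matplotlib 3.10.9.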

Additional observations from a re-analysis of the deposited data

Results flagged for a closer look

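Lyz2 in GFP uninjected mouse 1 was 15.6, above the other 4 GFP uninjected libraries, which lay between 10.1 and 11.4. On the log2(value + 0.5) scale its gap to the nearest library was 0.731 of the group's range, above Dixon's critical value of 0.710 for 5 samples. It was the 1 such value among 17 combinations of a member and a GFP group that could be examined, and chance marks about 1 in 20 groups. The same library held 4.70% Prl and Gh transcripts and the highest GFP uninjected sum of pan-myeloid genes, 361, against 262 to 312 in the other 4. Without that library the Lyz2 change in the GFP set was 2.53 (adjusted p = 0.00414), against 2.42 with it.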

How the results depend on the processing

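Of 363 alternatives of the 23 member results that were tested, 310 kept direction and side of the threshold, 22 lost a call, 5 gained one and 26 turned sign. The other 4, Ccr2 in all comparisons and Plac8 in the GFP set, had no test to set beside their 15 alternatives, of which 7, all of Plac8, were called. Of these 7, 5 were runs that left out 1 GFP uninjected library, and each gave the same change of 2.26. As Plac8 was 0 in all GFP uninjected libraries, these runs repeat 1 comparison against the floor. Lyz2 was called in both sets under every alternative run. The calls of Ly6c2, Plac8 and Cd14 in the miR-181 set were lost without a filter on low values (adjusted p = 0.0591, 0.0909 and 0.0662), and their other losses stand beside their values. The calls in the miR-181 set numbered 908; they were 315 without a filter, 449 without the trend, and between 117 and 1924 with 1 library left out. The share higher of 74.7% became 57.5% with median centring (634 higher, 468 lower), 85.1% without a filter (268 and 47) and 88.0% without the trend (395 and 54). In the GFP set 206 calls became 135 with mouse as a block and between 108 and 255 with 1 library left out. The 5 calls of the difference became 1 with a pseudocount of 1, no filter, a mean of 0.2, quantile normalization or GFP mouse 1 left out, 3 without the trend, 45 without the mouse block, and between 1 and 310 with 1 mouse left out. Pairing by mouse as a block changed the Cd14 call in the miR-181 set and no other call of a tested member; in the GFP set the block also leaves out mouse 5; the miR-181 count with the block was 718.

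Signs turned only for results (a member in 1 comparison) that did not pass the test, also where the same member was called in another comparison. In the miR-181 set these were Cd163 with quantile normalization (-0.15) and median centring (-0.0382) and F13a1 with the same (-0.16 and -0.0197); with 1 library left out Cd163 ran from -0.0566 to 0.0965 and F13a1 from -0.139 to 0.25. For the difference, a pseudocount of 0.1 gave -0.0883 for Plac8 and -0.0525 for Ms4a7, median centring -0.00275 for Lyz2, no block 0.00831 for Cd14, and leaving out GFP mouse 1 -0.22 for Lyz2 and -0.27 for Ms4a7. With 1 mouse left out the difference ran from -0.22 to 0.38 for Lyz2, -0.266 to 0.0363 for F13a1, -0.22 to 0.14 for Cd14, -0.27 to 0.46 for Ms4a7 and -0.0389 to 0.288 for Mrc1. The cause was not tested. Plac8, Ccr2 and Ms4a7 are low, and their values in the GFP set rest on few reads.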
